A study of Mus musculus with 24 samples.

Results

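Bone marrow-derived macrophages of CB-R1 mice were compared with those of B6 mice after exposure to flagellin, the protein subunit of the bacterial flagellum. The comparison used 3 arrays per strain, selected by the strain and treatment in the array titles, and these are 6 of the 24 arrays of the study. The B6 group carried the strain label C57BL/6J-Il10tm1Cgn and the CB-R1 group the label C3Bir.Cg-Il10tm1Cgn Cdcs1. All animals were male and lacked Il10, whose product restrains inflammation, so no group had an intact copy. CB-R1 has the C3Bir genetic background with a long chromosome 3 element from B6 that contains Cdcs1, a colitis susceptibility locus. Both groups therefore carried the B6 form of Cdcs1 and differed in the rest of the genome, which is the question of this comparison: what the genetic background changes when the locus does not. Cells of 3 mice per genotype were cultured for 6 days and given 1 µg/mL of the Cbir flagellin for the last 4 h, and 3 wells were pooled per RNA sample. The labels do not tie an array number to a mouse, so the p-values reflect only how far single arrays of a group differ, which may be technical. The parent strain C3Bir and the reciprocal strain BC-R3, which has the B6 background with the C3Bir form of Cdcs1, served as a second pair with the same contrast of backgrounds.

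Macrophages detect flagellin through the surface receptor Tlr5 and, inside the cell, through NAIP proteins that start the inflammasome. The Tlr5 route leads to NF-kB-driven cytokines and chemokines, while the inflammasome activates caspase-1, which matures interleukin-1 family cytokines and can end in cell death. Interferon made by macrophages switches on interferon-stimulated genes. Cultures grown from bone marrow consist mostly of macrophages but can retain granulocytes, dividing precursors and stromal cells, and inbred strains differ in gene variants that change both expression and the binding of array probes.

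Array medians of the log2 values lay between 6.55 and 6.64, and the lower quartile between 5.29 and 5.42; values at or below this quartile were read as low signal, and no fold was formed against them. The 3 CB-R1 arrays correlated at 0.996 to 0.997 with each other and the 3 B6 arrays at 0.987 to 0.994. The median SD of a gene within a group was 0.07 in CB-R1 and 0.12 in B6. The arrays labelled unstimulated differed among themselves. Il6, an inflammatory cytokine, read 3.87 to 4.31 on all 12 arrays labelled flagellin, below the lower quartile, but 10.93 and 11.2 on B6 unstimulated arrays 2 and 3. Tnf read 13.31 and 13.26 on that pair of arrays and 10.90, 10.69 and 10.13 on the B6 flagellin arrays. On C3Bir unstimulated arrays 2 and 3 Il12b, a subunit of interleukin-12, read 9.29 and 9.75, against at most 6.92 on the 12 flagellin arrays. Il1b read 11.79 and 11.65 on that pair of C3Bir arrays, against at most 10.07. Unstimulated array 1 of B6 and of BC-R3 also stood above the flagellin arrays for some genes. Tnf read 11.4 and 11.17 there, against at most 10.95 on the 12 flagellin arrays. Ccl5 read 12.92 and 12.44, against at most 11.61, while Il1b, at 10.0 and 10.06, did not exceed them. High cytokine or chemokine signal thus stood against the treatment labels in B6, C3Bir and BC-R3. Whether treatments were exchanged on some arrays was not tested, so every value given as flagellin-treated or unstimulated rests on the labels as deposited. The main comparison uses no unstimulated array except to estimate the spread. An alternative added after seeing the data left out unstimulated arrays 2 and 3 of B6 and C3Bir but kept array 1 of B6 and BC-R3. With it the main comparison called 1070 genes higher and 738 lower.

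Il10, the deleted gene, read 6.74, 6.72 and 7.03 in CB-R1 and 7.07, 6.91 and 6.72 in B6, which overlap. The position of its probe set relative to the deletion was not looked at, and every strain carries the deletion, so these values check no label. Of 18193 genes, 1589 (8.73%) passed an adjusted p of 0.05 in limma. In CB-R1, 934 (5.13%) were higher and 655 (3.6%) lower than in B6. A difference of at least 2-fold was found for 223 of them (1.23%), 130 higher and 93 lower. The 3 arrays of one strain did not overlap the 3 of the other for 4857 genes (26.7%), and 1571 of the called genes were among these. The median difference over all genes was 0.03 on the log2 scale and the median absolute difference 0.10. Over the called genes the median absolute difference was 0.49, and 1366 of the 1589 differed by less than 2-fold. When each array was centred on its median, the split turned to 724 higher and 836 lower, so the larger number of higher genes depends on the scaling. Without CB-R1 array 2, 991 genes were called.

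No macrophage identity gene passed the test in limma. Of 19 such genes 0 were called, with a median difference of 0.04. The mean log2 value of this list was 12.37, 12.33 and 12.45 on the CB-R1 arrays and 12.49, 12.03 and 12.41 on the B6 arrays, which overlap. Csf1r, the receptor of the macrophage growth factor, differed by -0.07 ± 0.10 (log2 difference, CB-R1 minus B6, ± SE), and the lysosomal glycoprotein gene Cd68 by 0.03 ± 0.06. Adgre1, which encodes the F4/80 antigen, differed by -0.35 ± 0.16 and did not pass (limma adjusted p = 0.20). Of 11 T and NK cell markers, 3 (Cd3g, Cd8b1 and Thy1) had means below the lower quartile in both strains and 1 was called higher, the T cell receptor complex gene Cd3d. It read 6.87, 7.15 and 6.56 in CB-R1 and 5.99, 6.21 and 6.09 in B6 (0.76 ± 0.14). Of 11 dendritic cell markers, 2 were called higher, the chemokine receptor Ccr7 (0.49 ± 0.13) and the inhibitory receptor Btla (0.46 ± 0.10). Of 9 B cell markers 1 was called higher, Ms4a1, which encodes CD20 (0.41 ± 0.10), and 0 were lower in these lists. The shares called were 9.09%, 18.2% and 11.1% in the T and NK, dendritic and B cell lists, beside 8.73% of all genes. Of 5 eosinophil markers 0 were called, with Epx, Siglecf and Il5ra below the quartile. Mast cell and basophil genes had 0 of 11 called, with Fcer1a and Ms4a2 below the quartile.

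The genes with the highest excess in CB-R1 came from several processes. Ifi202b, an interferon-inducible DNA-binding protein of the Ifi200 family, read 11.76, 11.75 and 12.34 on the CB-R1 arrays and 5.69, 5.93 and 6.28 on the B6 arrays. Its CB-R1 values all lay far above those of B6, by 5.99 ± 0.23 or 63.5-fold (limma adjusted p = 2.6e-13). Hal, the enzyme that opens histidine breakdown, read 9.65, 9.88 and 9.98 against 5.21, 5.82 and 4.85, with the B6 mean in the low-signal range and a difference of 4.54 ± 0.31 (limma adjusted p = 5.2e-09). Colec12, a scavenger receptor of the collectin family, read 9.23, 9.21 and 9.49 against 5.79, 5.45 and 5.80, a 12.4-fold excess. Ada, adenosine deaminase, read 9.40, 9.56 and 9.74 against 6.77, 6.49 and 6.59, or 7.72-fold more. Non-overlapping arrays were a condition for choosing the 10 highest genes, so the separation of their arrays is no result. Cd300lf, an inhibitory receptor of myeloid cells, read 11.18, 11.39 and 11.53 against 8.86, 8.27 and 8.75 and was 6.67-fold higher. Olfm4, a granule protein of a neutrophil subset, read 9.0, 9.28 and 8.64 against 6.98, 5.72 and 5.03, so that B6 array 1 stood closest to CB-R1. The other 4 of the 10 highest were the zinc finger gene Zfp979 and the adhesion molecule Nrcam, at 3.57 ± 0.15 and 3.42 ± 0.17 with B6 means in the low-signal range, the class I-like H2-T24 at 3.01 ± 0.45 and Clba1, which encodes a clathrin-binding protein, at 2.69 ± 0.12. Each of the 10 was called without any 1 of the 6 arrays.

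Among the genes lower in CB-R1, Rpgrip1, known for its role in photoreceptor cilia, read 6.24, 6.27 and 6.32 in CB-R1 and 10.24, 9.66 and 10.23 in B6. The B6 arrays were 13.6-fold higher on this probe set (limma adjusted p = 5.4e-15). Other probe sets of Rpgrip1 differed by 0.04, -0.06 and -0.01 without passing, with low-signal means in both strains. Mamdc2, a gene of a MAM domain protein, read 5.43, 5.55 and 5.71 against 8.83, 9.31 and 9.80 and was 13.5-fold higher in B6. Cd5l, a secreted macrophage protein that inhibits apoptosis, read 9.84, 9.64 and 9.99 against 12.46, 12.69 and 12.89, a 7.22-fold difference. Tlr1, the partner of Tlr2 in sensing bacterial lipopeptides, read 6.74, 6.2 and 7.27 against 10.43, 8.77 and 9.52. It was 7.14-fold higher in B6 (limma adjusted p = 0.00073). The lowest B6 array stood above the highest CB-R1 array, which the choice of the genes in this paragraph required. Cd300c2, a second member of the CD300 receptor family, read 9.28, 9.26 and 9.19 against 11.75, 11.85 and 11.90, 6.01-fold higher in B6 where Cd300lf was lower. Fblim1, a filamin-binding protein, was lower by 2.73 ± 0.24 on the log2 scale in CB-R1, the pseudogene Znf41-ps differed by -2.97 ± 0.11, Gm13238 by -2.58 ± 0.16 and Trim12a, a gene of the TRIM family, by -2.58 ± 0.27. CB-R1 means of Gm13238 and Trim12a lay in the low-signal range, and a second probe set of Trim12a differed in the opposite direction without passing. Leaving out any 1 of the 6 arrays kept the calls of these 9 genes as well.

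H2-D1, a classical class I MHC gene, was the 1 named gene for which another probe set differed in the opposite direction with an unadjusted p under 0.05. The probe set used read 11.15, 11.39 and 11.17 in CB-R1 and 13.75, 13.90 and 13.86 in B6. Of its 8 other probe sets, 5 were higher in CB-R1: one read 12.86, 13.10 and 13.25 against 6.79, 5.88 and 6.28, while another read 6.58, 6.71 and 6.69 against 13.49, 13.25 and 13.43. The direction for H2-D1 therefore depends on the probe set, and no direction is given for the gene. Beside 5.13% of all genes called higher and 3.6% lower, the 14 class I and peptide-loading genes had 2 higher and 3 lower. These counts rest on the probe set used for each gene. H2-D1 is counted among the lower by its probe set alone. Beside H2-T24 and H2-D1, the class I-like H2-Q10 was higher (0.36 ± 0.09), and H2-M3 (-0.45 ± 0.07) and the classical H2-K1 (-0.34 ± 0.08) were lower. H2-Ea, a class II gene for which inbred strains differ, was not called on the probe set used (0.41 ± 0.14, limma adjusted p = 0.075), while a second probe set read 7.03, 7.23 and 7.19 in CB-R1 and 5.66, 5.69 and 5.74 in B6.

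**Figure D1:**
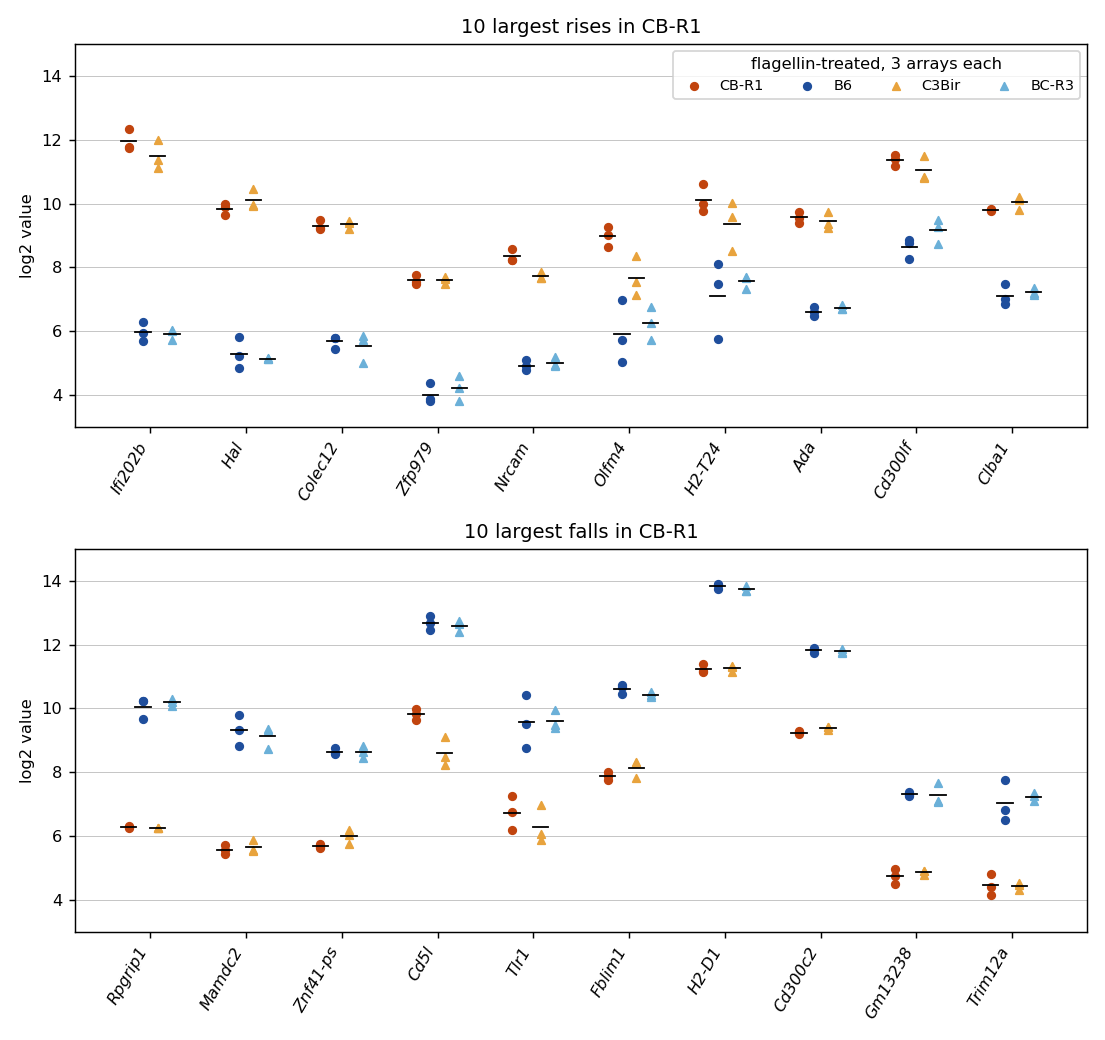
Log2 values of the 10 genes with the largest positive and the 10 with the largest negative difference between CB-R1 and B6, in the flagellin-treated arrays of 4 strains. Points are the 3 arrays of a strain and black lines their means. CB-R1 (circles, red) lies apart from B6 (circles, blue) for every gene because the genes were chosen by this rule. C3Bir and BC-R3 (triangles) are shown beside them. H2-D1 is plotted by the probe set used, and its direction depends on the probe set.

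The same contrast of backgrounds was made with the C3Bir form of Cdcs1 by setting C3Bir against BC-R3, which shares no array with CB-R1 against B6. There 1123 genes (6.17%) were called, 633 higher (3.48%) and 490 lower (2.69%). Of the 1589 genes called in CB-R1 against B6, 1459 (91.8%) differed in the same direction in the second pair, beside 65.4% of all genes. Both comparisons called 666 genes in the same direction, which are 41.9% of the first list and 59.3% of the second, and 1 gene in opposite directions. Of the 223 genes with at least a 2-fold difference, 214 had the same sign and 151 were called in both. Across the 1589 genes the differences of both pairs correlated at 0.89 (Pearson, a description over genes, which are not independent), and at 0.72 over all 18193 genes. Ifi202b differed by 5.57 ± 0.23 in the second pair, Hal by 4.96 ± 0.31, Rpgrip1 by -3.93 ± 0.11 and Cd5l by -3.99 ± 0.24. The neutrophil granule gene Ltf, in contrast, differed by 1.75 ± 0.36 in CB-R1 against B6 and by 0.09 ± 0.36 in C3Bir against BC-R3, but the difference of these differences was not called (limma adjusted p = 0.40).

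A direct test of whether the background difference changed with the Cdcs1 allele called 3 genes (0.0165%), 2 with a larger (0.011%) and 1 with a smaller (0.0055%) value for the B6 allele. Ppbp, a platelet chemokine that macrophages also make, read 7.30, 7.33 and 7.52 in CB-R1 against 9.42, 9.45 and 8.89 in B6, a difference of -1.87 ± 0.19; in C3Bir against BC-R3 it was -3.56 ± 0.19. Adgrg3, an adhesion receptor of granulocytes, was higher in CB-R1 (7.70, 7.79 and 7.37 against 6.95, 6.83 and 6.64) and differed by -0.26 ± 0.11 in the other pair. Pgap1, an enzyme that remodels GPI anchors, was lower in CB-R1 (6.75, 6.37 and 6.66 against 7.84, 7.94 and 7.70) and differed by 0.11 ± 0.15 in the other pair. The count of 3 fell to 0 without any 1 of the following arrays: B6 flagellin 3, C3Bir flagellin 2 and 3, BC-R3 flagellin 1 and 2, and CB-R1 flagellin 1 and 2. It was 8 without B6 flagellin array 1 or without C3Bir flagellin array 1, and 1 without CB-R1 flagellin array 3. At an unadjusted p under 0.05 the counts without those 7 arrays were 927 to 1405.

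**Figure D2:**
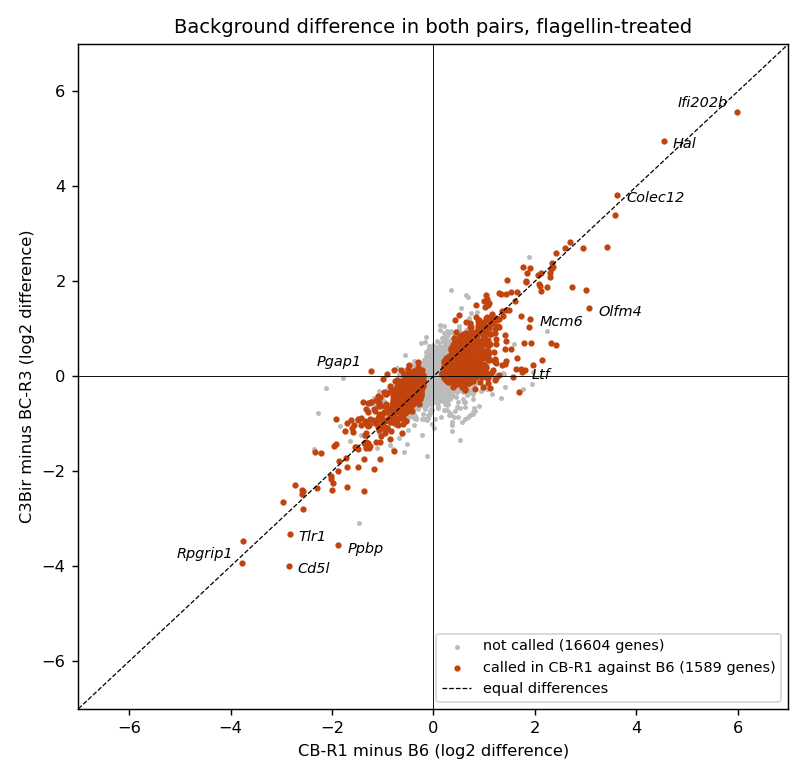
Log2 difference of CB-R1 minus B6 (x axis) against C3Bir minus BC-R3 (y axis) in flagellin-treated macrophages, 1 point per gene. Red points are the 1589 genes called in CB-R1 against B6; most lie in the quadrants of equal sign, while Ltf lies near 0 on the y axis and Ppbp below the line of equal differences.

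Most neutrophil genes were higher in CB-R1. Of 13 measured neutrophil markers, 12 were called higher in CB-R1 and 0 lower, beside 5.13% and 3.6% of all genes. Their median difference was 1.13, beside 0.03 for all genes. Ltf, the granule protein lactoferrin, read 12.56, 12.88 and 12.42 in CB-R1 and 11.63, 10.90 and 10.07 in B6. Camp, an antimicrobial peptide of granules, read 12.22, 12.63 and 12.37 against 11.60, 10.55 and 9.90. Mpo, myeloperoxidase, read 11.85, 11.86 and 11.89 against 10.38, 9.57 and 10.03. B6 array 1 was the highest of its group for all 3. They were named among the called genes, of which 1571 of 1589 did not overlap, so the separation of their arrays is no added result. In the order above the excess was 3.37-, 3.30- and 3.67-fold. S100a8 and S100a9, the calcium-binding alarmins of neutrophils, were higher by 0.67 ± 0.18 and 0.78 ± 0.20, and the granule proteases Prtn3 and Ctsg by 1.52 ± 0.43 and 1.42 ± 0.31. Elane, neutrophil elastase, differed by 1.13 ± 0.39 and did not pass (limma adjusted p = 0.078). Mmp9, a matrix protease that osteoclasts also make, was higher by 1.12 ± 0.32.

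The mean log2 value over the 13 markers was 11.31, 11.48 and 11.29 on the CB-R1 arrays and 10.62, 9.95 and 9.87 on the B6 arrays. On C3Bir flagellin arrays the mean was 11.10, 10.46 and 10.20, and on BC-R3 flagellin arrays 10.40, 10.30 and 10.33. CB-R1 thus had the highest values of the 4 strains, and C3Bir array 1 came closest. In the unstimulated cells the list was at 11.17, 11.47 and 11.34 in CB-R1 and 10.49, 9.88 and 9.89 in B6, and 10 of the 13 were called higher there, where 20.4% of all genes were. In C3Bir against BC-R3 0 of 13 were called, with a median of 0.15; the test of the difference between the pairs called 0 of 13 as well. Without B6 array 3, or without CB-R1 array 2, 6 of the 13 were called higher, where 4.51% and 3.23% of all genes were; no other single array lowered the count below 9. In bulk RNA more cells of a type and more RNA per cell cannot be told apart.

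Cell cycle genes moved alongside. Of 24 genes of replication and mitosis, 18 were called higher in CB-R1 and 0 lower, beside 5.13% and 3.6% of all genes. Their median difference was 0.64. Mcm6, a subunit of the replicative helicase, read 10.41, 10.41 and 10.28 in CB-R1 and 8.58, 8.39 and 8.40 in B6, a 3.76-fold excess (limma adjusted p = 4.8e-06). Rrm2, the regulated subunit of ribonucleotide reductase, read 9.12, 9.18 and 8.99 against 8.30, 7.94 and 7.63, or 2.20-fold more. Cdc20, an activator of the anaphase-promoting complex, read 8.58, 8.25 and 8.44 against 7.62, 7.55 and 7.14. The strains did not overlap for these genes, which were named among the called genes, so that is no added result. Birc5, the mitotic survivin gene, was higher by 0.95 ± 0.16, the cyclin gene Ccnb2 by 0.84 ± 0.17, the topoisomerase Top2a by 0.85 ± 0.17 and the proliferation marker Mki67 by 0.82 ± 0.16. The replication factor genes Pcna and Mcm3 differed by 0.04 and 0.05 and the checkpoint kinase Bub1b by 0.07, and none of these 3 passed. The mean over the list was 8.62, 8.63 and 8.54 in CB-R1 and 8.06, 7.92 and 7.82 in B6, and the neutrophil mean was higher on the same 3 arrays; the part of that difference in the cell cycle genes was not tested. In the unstimulated cells 23 of 24 were called higher, where 20.4% of all genes were. In C3Bir against BC-R3 1 of 24, Mcm6 (1.22 ± 0.21), was called higher, beside 3.48% of all genes. The test of the difference between the pairs called 0 of 24.

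**Figure D3:**
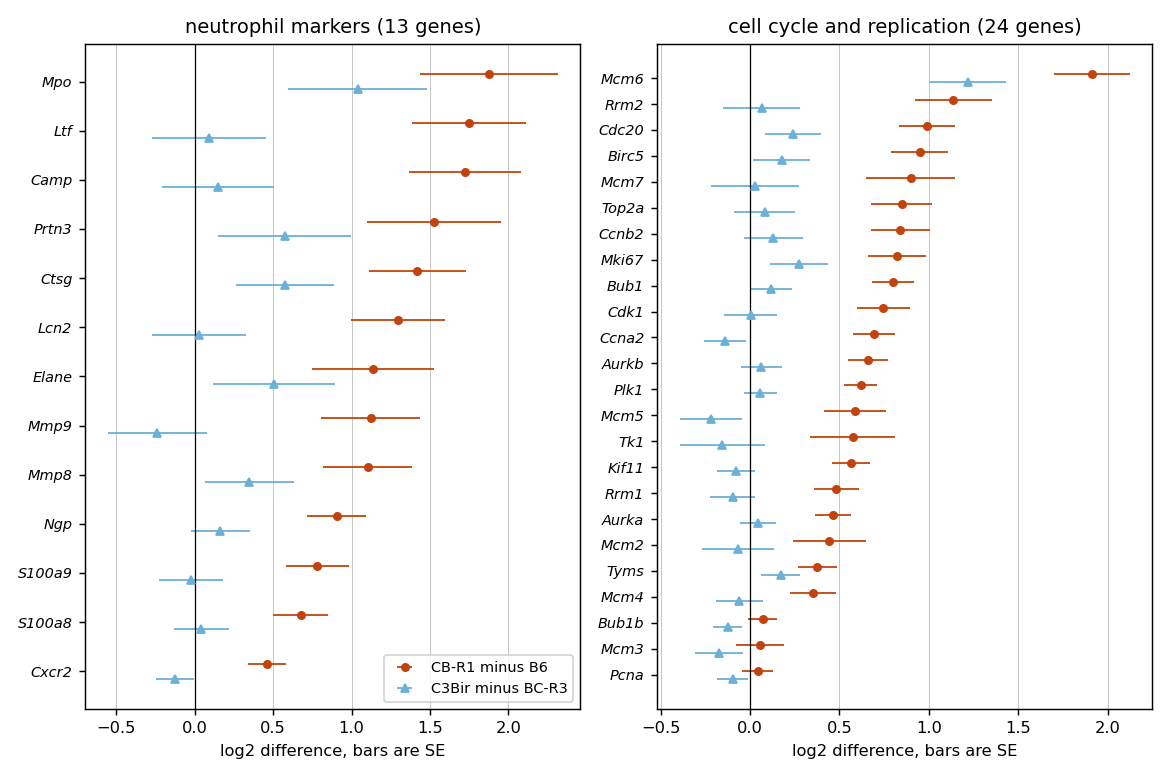
Log2 differences of 13 neutrophil markers (left) and 24 cell cycle genes (right) in flagellin-treated cells, for CB-R1 minus B6 (red circles) and C3Bir minus BC-R3 (blue triangles); bars are SE. All red points lie above 0, with medians of 1.13 and 0.64, while the blue points lie around medians of 0.15 and 0.04.

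Promoters of cell cycle genes share sequence elements, and 4 of the called genes are shown because they carry these elements. The sequences are the 250 bases before the RefSeq start of each gene in GRCm38.p6, written 5′ to 3′ on the gene's strand, here the minus strand for all 4, for Ccnb2 (chr9:70421555-70421804), Cdc20 (chr4:118437344-118437593), Top2a (chr11:99024190-99024439) and Mcm6 (chr1:128359706-128359955). Capitals mark the CCAAT box (CCAAT), the cell cycle homology region (TTTGAA) and the E2F motif (TTTNNCGC) on either strand; Mcm6 has 3 E2F matches, of which the pair farther from the start overlaps.
Ccnb2: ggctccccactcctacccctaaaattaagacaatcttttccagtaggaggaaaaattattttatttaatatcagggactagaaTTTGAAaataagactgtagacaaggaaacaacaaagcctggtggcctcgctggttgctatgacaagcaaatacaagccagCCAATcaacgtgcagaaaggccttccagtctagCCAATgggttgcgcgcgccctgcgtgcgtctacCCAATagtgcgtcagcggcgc
Cdc20: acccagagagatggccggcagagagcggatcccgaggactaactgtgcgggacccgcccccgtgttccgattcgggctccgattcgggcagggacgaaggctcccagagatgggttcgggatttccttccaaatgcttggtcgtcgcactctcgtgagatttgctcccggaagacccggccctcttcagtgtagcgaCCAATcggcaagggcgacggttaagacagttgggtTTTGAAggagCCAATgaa
Top2a: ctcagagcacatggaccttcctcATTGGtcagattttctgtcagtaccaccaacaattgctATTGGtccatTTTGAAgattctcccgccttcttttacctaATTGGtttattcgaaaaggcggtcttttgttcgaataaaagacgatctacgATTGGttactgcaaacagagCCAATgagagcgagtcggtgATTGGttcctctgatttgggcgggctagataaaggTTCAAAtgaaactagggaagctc
Mcm6: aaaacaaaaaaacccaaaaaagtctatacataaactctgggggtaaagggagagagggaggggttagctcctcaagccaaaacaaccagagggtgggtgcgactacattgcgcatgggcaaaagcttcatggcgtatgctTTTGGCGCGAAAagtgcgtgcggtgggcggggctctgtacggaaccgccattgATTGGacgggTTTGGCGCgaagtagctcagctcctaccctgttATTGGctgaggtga
A CCAAT box was found in 18 of the 21 cell cycle genes with a RefSeq promoter (85.7%), beside 39.4% of the 14452 tested genes with one. Of the 16 that were also called higher, 14 had it. TTTGAA was found in 7 of 21 (33.3%, beside 14.1%) and the E2F motif in 4 of 21 (19.0%, beside 6.94%). Of 12 neutrophil marker genes with a promoter, 4 had a CCAAT box (33.3%). The sequence is that of the C57BL/6J reference, so it stands for B6; the C3Bir sequence was not used here, and a match of letters is a description of the promoter.

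Antioxidant genes were among the lower genes. Of 17 measured antioxidant and NRF2 genes, 7 were called lower in CB-R1 and 2 higher, beside 3.6% and 5.13% of all genes. Their median difference was -0.67. NRF2 is the transcription factor that switches on such genes under oxidative stress. Cat, catalase, read 10.17, 10.15 and 10.26 in CB-R1 and 11.98, 11.65 and 11.76 in B6, 3.04-fold more in B6 (limma adjusted p = 1.8e-09). Gclm, the modifier subunit of the enzyme that limits glutathione synthesis, read 11.30, 10.91 and 11.15 against 12.88, 12.79 and 12.44, 2.99-fold more in B6. Hmox1, heme oxygenase 1, read 11.39, 11.23 and 11.04 against 13.09, 12.49 and 12.14, 2.55-fold more in B6. The strains did not overlap for these 3 genes, which were named among the called genes, so that is no added result. Srxn1, sulfiredoxin, was lower by 1.32 ± 0.24 on the log2 scale, and the thioredoxin reductase Txnrd1, the biliverdin reductase Blvrb and the quinone reductase Nqo1 differed by -1.13 ± 0.26, -0.75 ± 0.10 and -0.67 ± 0.15. Against this direction, the extracellular glutathione peroxidase Gpx3 was higher by 1.03 ± 0.14 and Nnt, the mitochondrial transhydrogenase that C57BL/6J is known to carry as a mutant, by 0.57 ± 0.11. The cystine transporter Slc7a11 differed by -1.79 ± 0.66 and did not pass (limma adjusted p = 0.11), with 6.51, 6.50 and 6.55 in CB-R1 and 8.26, 8.97 and 7.69 in B6. Nfe2l2, the gene of NRF2 itself, differed by -0.22 without passing.

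In the unstimulated cells 11 of the 17 were called lower, where 11.2% of all genes were, and 3 higher, and the list's mean over the 3 arrays was 10.17 in CB-R1 and 11.05 in B6, whose lowest array stood above the highest of CB-R1. With flagellin it was 10.38, 10.28 and 10.33 against 11.10, 11.01 and 10.84, which do not overlap either. The difference between conditions called 0 of 17. In C3Bir against BC-R3 3 were called lower, among them Cat (-1.09 ± 0.10), Gclm (-1.18 ± 0.20) and Hmox1 (-1.23 ± 0.26), and 2 higher, Gpx3 (0.90) and Nnt (0.40 ± 0.11). Of all genes, 2.69% were called lower and 3.48% higher in that pair. In CB-R1 against B6, leaving out any 1 of the 6 arrays left 7 lower and 2 higher. In these fits 2.22% to 4.4% of all genes were lower and 3.23% to 5.77% higher.

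**Figure D4:**
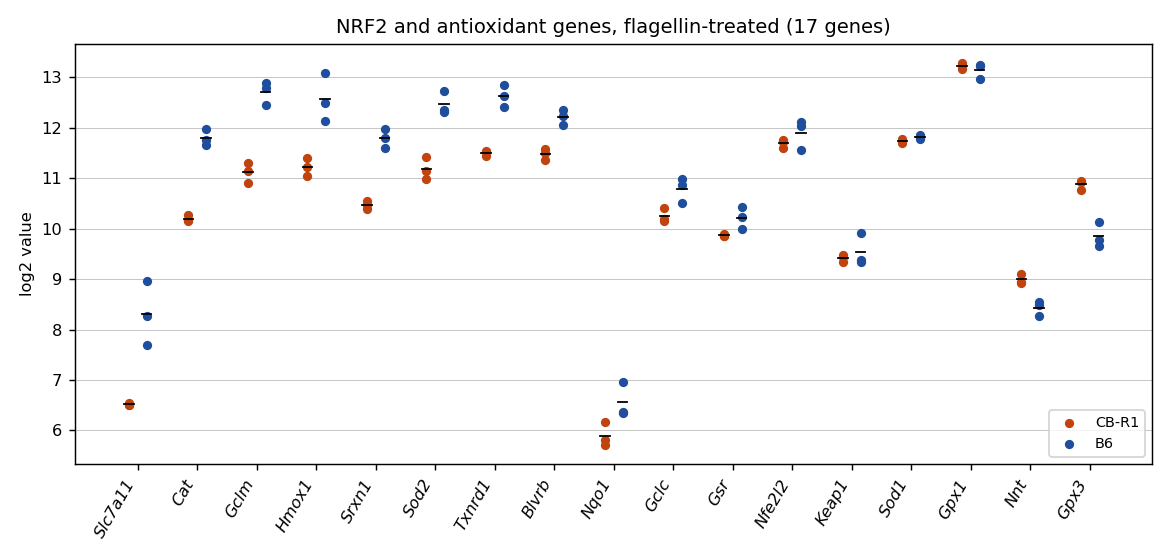
Log2 values of 17 NRF2 and antioxidant genes in flagellin-treated CB-R1 (red) and B6 (blue) macrophages, ordered by the difference; points are the 3 arrays of a strain and black lines their means. B6 lies above CB-R1 for Cat, Gclm and Hmox1, and below it for Nnt and Gpx3. The arrays of Cat, Gclm and Hmox1 do not overlap, as for 1571 of the 1589 called genes.

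The upstream sequences of Gclm and Txnrd1 are shown because both genes were lower in CB-R1 and hold the core of the antioxidant response element (TGACNNNGC, capitals, here on the opposite strand in both). Gclm lies at chr3:122245307-122245556 and Txnrd1, by the first-listed of its 3 RefSeq starts that holds the core, at chr10:82858956-82859205, both on the plus strand of GRCm38.p6.
Gclm: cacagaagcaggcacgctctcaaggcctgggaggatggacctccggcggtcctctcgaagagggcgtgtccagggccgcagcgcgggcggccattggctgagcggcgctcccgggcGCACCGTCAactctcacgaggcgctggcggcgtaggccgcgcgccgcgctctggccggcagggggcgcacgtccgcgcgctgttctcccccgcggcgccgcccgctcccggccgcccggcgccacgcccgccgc
Txnrd1: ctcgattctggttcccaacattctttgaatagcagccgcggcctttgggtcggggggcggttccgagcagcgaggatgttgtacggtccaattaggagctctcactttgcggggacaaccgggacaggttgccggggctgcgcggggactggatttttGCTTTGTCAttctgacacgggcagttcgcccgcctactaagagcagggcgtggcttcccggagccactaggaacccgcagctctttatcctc
The core was found in 4 of the 13 genes of the list with a promoter (30.8%), beside 13.5% of all tested genes with one, and in 2 of the 6 that were called lower. The match lies at -134 to -126 in Gclm and -92 to -84 in Txnrd1, counted from the start.

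Of 30 measured interferon-stimulated genes, 4 were called higher in CB-R1 and 0 lower, beside 5.13% and 3.6% of all genes. The median difference of the list was 0.81, and 26 of the 30 genes did not pass. Of its values 29 were positive, beside 10667 of all 18193 genes. Irf7, the transcription factor that amplifies interferon production, read 11.67, 11.65 and 12.31 in CB-R1 and 11.18, 9.35 and 10.22 in B6 (1.62 ± 0.47, limma adjusted p = 0.033). Ifi27l2a read 13.62, 13.67 and 13.75 against 13.04, 11.95 and 12.36, and the RNA-sensing synthetase genes Oas3 and Oas1a were higher by 1.04 ± 0.20 and 0.81 ± 0.17. B6 array 1 was the highest of its group for both genes given by array. Mx1, an antiviral GTPase, read 9.77, 9.34 and 10.34 in CB-R1 and 10.60, 7.23 and 8.32 in B6, with B6 array 1 above all CB-R1 arrays, and did not pass (limma adjusted p = 0.44). The list's mean was 10.60, 10.45 and 11.05 in CB-R1 and 10.86, 9.15 and 9.66 in B6. Without B6 array 1, 18 of the 30 were called higher, where 3.9% of all genes were. In unstimulated cells the list went the other way, with 18 of 30 called lower, 1 higher and a median of -1.19. Of all genes, 11.2% were called lower there and 20.4% higher. The list's mean on the B6 arrays labelled unstimulated was 11.14, 11.85 and 11.86, above every flagellin array of the 4 strains. The test of the difference between conditions called 14 of 30, beside 2.51% of all genes. That test called 0 of all genes without B6 unstimulated array 2 or 3, or without unstimulated arrays 2 and 3 of B6 and C3Bir. In C3Bir against BC-R3 0 were called, with a median of 0.07. The guanylate-binding and immunity-related GTPases, 12 measured genes that interferon gamma induces, had 0 called and a median of 0.53.

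For the sensors of flagellin no difference was detected. Tlr5 read 7.25, 7.30 and 7.38 in CB-R1 and 7.33, 7.14 and 7.28 in B6, which overlap (0.06 ± 0.10). Naip5, the flagellin-binding NAIP protein, differed by 0.04 ± 0.18. Nlrc4, the partner of the NAIP proteins, was not analysed here. Within the 13 inflammasome genes, 2 were called lower: the adaptor Pycard, with 9.92, 9.83 and 9.91 against 10.68, 10.19 and 10.58, and Naip2 (-0.53 ± 0.10). Of 21 Toll-like receptor and adaptor genes, Tlr1 was lower and Tirap, an adaptor of Tlr2 and Tlr4 signalling, higher (0.28 ± 0.08). Beside both lists, 3.6% of all genes were called lower and 5.13% higher. Tlr4, the receptor of lipopolysaccharide, differed by 0.16 ± 0.17.

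NF-kB pathway genes all had negative differences, 21 of 21, beside 7526 of all 18193 genes. Their median was -0.61, but 2 passed, beside 3.6% of all genes called lower. Relb, an NF-kB subunit, read 8.66, 8.52 and 8.84 in CB-R1 and 9.95, 9.71 and 9.50 in B6 (-1.04 ± 0.25, limma adjusted p = 0.011). Dusp1, a phosphatase that restrains MAP kinases, differed by -0.60 ± 0.12. The list's mean was 9.40, 9.28 and 9.57 in CB-R1 and 10.38, 9.95 and 9.87 in B6, which do not overlap. The count differed with the arrays that estimate the spread: 15 of 21 were lower when the 12 flagellin arrays were fitted alone and 12 when the 6 compared arrays were, and 1 without B6 array 1 or without CB-R1 array 2. Fitted alone, the 12 flagellin arrays called 10.9% of all genes, 6.38% higher and 4.51% lower. The 6 compared arrays called 7.74%, 4.67% higher and 3.07% lower. Without B6 array 1 or without CB-R1 array 2, 2.22% of all genes were lower. In C3Bir against BC-R3 0 of the 21 passed, with a median of -0.30 and 20 negative values. In unstimulated CB-R1 against B6 all 21 were negative and called lower, where 11.2% of all genes were called lower. The list's mean on the B6 arrays labelled unstimulated was 10.42, 11.04 and 11.08, above all B6 flagellin arrays. Whether the labels of those arrays hold was not tested.

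Cytokines showed little that passed, 8.7% of the list beside 8.73% of all genes. Of 23 genes, 2 were higher, the B cell survival factor Tnfsf13b (0.74 ± 0.14) and Il16 (0.77 ± 0.23), a lymphocyte chemoattractant, and 0 were lower. Tnf read 8.74, 8.67 and 8.77 in CB-R1 and 10.90, 10.69 and 10.13 in B6; the arrays do not overlap, yet the difference of -1.85 ± 0.63 did not pass (limma adjusted p = 0.074). Il1b (-0.17 ± 0.78) and Il12b (-0.40 ± 0.95) had wide errors, and Nos2, inducible nitric oxide synthase, differed by 0.14 ± 0.28. These errors and that of Tnf were estimated over all arrays, including those labelled unstimulated. On the B6 arrays labelled unstimulated Il1b read 10.0, 13.2 and 13.29 and Il12b 7.36, 11.64 and 11.63. On the flagellin arrays of all strains Il1b lay between 8.75 and 10.07 and Il12b between 5.6 and 6.92. The part of the unstimulated arrays in these errors was not tested.

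Chemokines differed in both directions, with 2 of 24 called higher and 4 lower, beside 5.13% and 3.6% of all genes. Cxcl14, a chemokine of tissue macrophages and epithelia, read 10.87, 11.06 and 10.57 in CB-R1 and 8.47, 8.54 and 8.62 in B6 (2.29 ± 0.25, limma adjusted p = 3e-06). Ccl8, a monocyte chemoattractant, read 9.54, 9.01 and 9.79 against 7.82, 7.42 and 7.76. Their arrays did not overlap between the strains, but both were named among the called genes, so that is no added result. Lower were Ccl3 (8.48, 8.44 and 9.14 against 11.07, 10.56 and 10.21), Ppbp, Ccl9 (-1.14 ± 0.23) and Pf4 (-0.55 ± 0.17), a platelet chemokine, out of 24 measured. Ccl3, a macrophage inflammatory chemokine, lost its call without any 1 array. Ccl5 differed by -1.11 ± 0.75 and Cxcl10 by -0.80 ± 0.84, and neither passed. Both errors were estimated over all 24 arrays, including those labelled unstimulated. Among platelet and red cell markers, Itga2b, the platelet integrin, was lower as well (-0.73 ± 0.09), and 4 of 9 passed, all lower: Ppbp, Itga2b, Pf4 and Gp9. Beside these 4 of 9, 3.6% of all genes were called lower. Gata1 and Hba-a1 lay below the lower quartile.

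Of 20 glycolysis and hypoxia genes, 6 were lower, 1 was higher and 13 did not pass, with a median of -0.22. Of all genes, 3.6% were called lower and 5.13% higher, the shares to set beside both lists of this paragraph. The lactate exporter Slc16a3 read 9.60, 9.63 and 9.60 in CB-R1 and 10.62, 10.36 and 10.20 in B6, and the glycolytic enzymes Pfkl and Aldoa differed by -0.71 ± 0.21 and -0.49 ± 0.07. Ndrg1, a hypoxia-responsive gene, was higher by 1.07 ± 0.22. Without B6 array 1, or without any 1 of the CB-R1 arrays, 2 were lower, where 2.22% to 2.49% of all genes were. Of 20 sterol, lipogenic and LXR genes, 5 were lower, 1 was higher and 14 did not pass: the oxysterol receptor Nr1h3 (-0.95 ± 0.26), the lipid carrier Apoe (-0.78 ± 0.11), Mylip, which degrades the LDL receptor (-0.65 ± 0.15), the lipogenic factor Srebf1 (-0.51 ± 0.07) and the synthesis enzyme Cyp51 (-0.44) were lower, and the desaturase Scd1 (0.36) was higher. The counts of lower genes were 2 to 6 without any 1 array, where 2.22% to 4.4% of all genes were lower.

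Genes of uptake and clearance went both ways. Of all genes, 5.13% were called higher and 3.6% lower, and the counts of this paragraph stand beside these shares. Of 19 scavenger and phagocytosis genes, 2 were higher and 3 lower: Colec12 and the macrophage scavenger receptor Msr1 (0.41), and Cd5l, the bridging protein Mfge8 (-0.78 ± 0.23) and the lipid receptor Cd36 (-0.49 ± 0.08). Among 14 complement genes, the anaphylatoxin receptor C5ar1 was lower, at 10.77, 10.88 and 10.80 against 12.17, 11.12 and 12.30, and so was the classical pathway gene C1qb (-0.93 ± 0.20). C1ra (0.92 ± 0.13) and C2 (0.29 ± 0.06), proteases of the same pathway, were higher. Of 24 lysosome genes, 4 were higher and 4 lower; cathepsin E (Ctse) was higher by 1.04 ± 0.25 and the cation channel Mcoln2 differed by -1.0 ± 0.26, while its relative Mcoln3 was higher by 0.62 ± 0.13. Without B6 array 1 or CB-R1 array 2, 0 lysosome genes were lower and 3 higher. In both fits 2.22% of all genes were lower, and 3.9% and 3.23% were higher in that order. Alternative activation genes had 3 of 15 called, all higher, among them Rnase2a (1.08 ± 0.13, with the B6 mean in the low-signal range) and the chitinase-like Chil3 (1.00 ± 0.24). Stromal markers had 2 of 15, both genes of the extracellular matrix: Col3a1 (1.68 ± 0.44) and Lum (0.47 ± 0.11, with the B6 mean in the low-signal range); the list's mean was 8.97, 8.72 and 8.78 in CB-R1 and 8.32, 9.28 and 7.66 in B6, which overlap.

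The share of called genes on chromosome 3 lay within the range of the other chromosomes. Of its 913 genes 72 (7.89%) were called, where the other chromosomes ranged from 6.08% to 9.88%. Along gene order, no window of 50 genes held more than 7 called genes. At least a 2-fold difference between C3Bir and B6 was found for 15 genes of the chromosome, whose names were chosen after their values were seen; in CB-R1, 5 of these were nearer to B6 and 10 nearer to C3Bir. Ifi44l, an interferon-induced gene, read 5.36, 5.09 and 5.24 in CB-R1 and 5.15, 5.26 and 4.99 in B6, both low, while C3Bir minus B6 was 4.92 and CB-R1 minus C3Bir was -4.83. Gbp2b, a guanylate-binding protein of the same chromosome, differed by 0.22 ± 0.57 between CB-R1 and B6, while C3Bir minus B6 was 4.08. Olfml3 differed by -0.09 between CB-R1 and B6 and by -2.89 between C3Bir and B6. For these 3 genes CB-R1 was nearer to B6 than to C3Bir. Cd5l and its neighbour in gene order Fcrl1 (-1.32 in CB-R1, -1.43 in C3Bir, each minus B6) were lower in both, as was Gclm (-1.58 and -1.18). Adgrl2, which lies 2 genes before Ifi44l in this order, differed by -1.16 in CB-R1 and -1.09 in C3Bir. These comparisons share the B6 arrays, so their values are set side by side and not tested against each other.

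**Figure D5:**
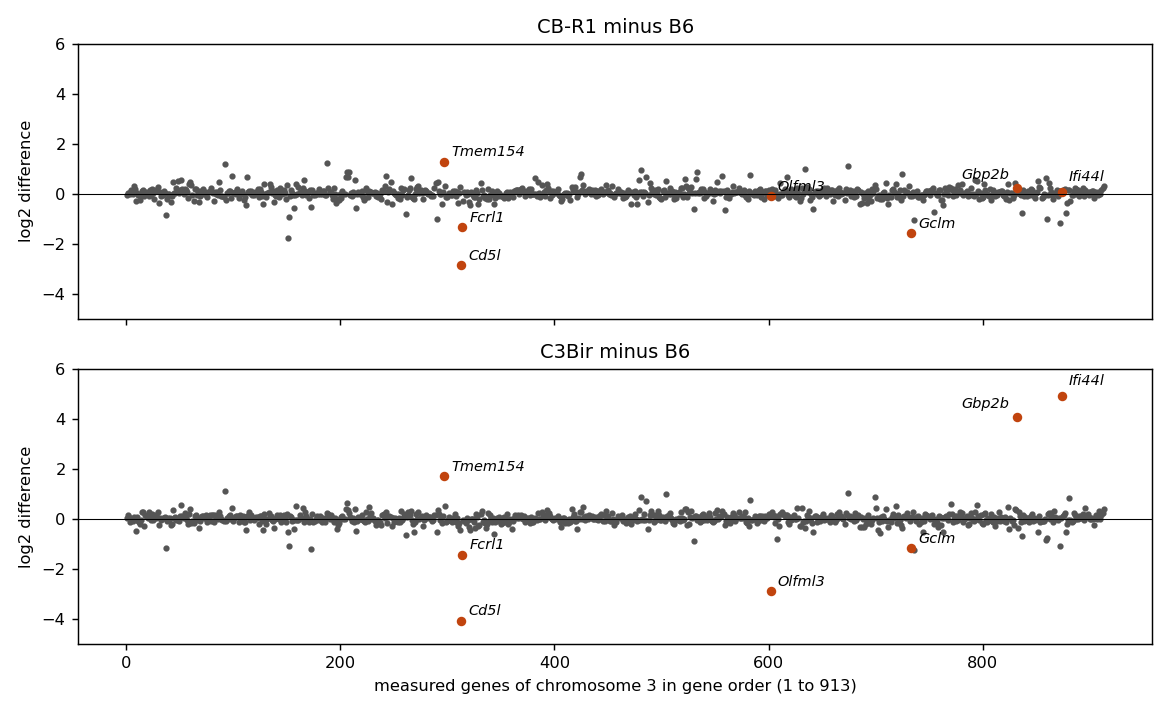
Log2 differences of the 913 measured genes of chromosome 3 in gene order, for CB-R1 minus B6 (top) and C3Bir minus B6 (bottom), flagellin-treated, with 7 genes marked in red. Ifi44l, Gbp2b and Olfml3 lie near 0 in the top panel and at 4.92, 4.08 and -2.89 in the bottom panel, while Cd5l, Fcrl1, Tmem154 and Gclm differ in both.

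The strain difference without flagellin was larger in count: 5741 genes (31.6%) were called in unstimulated cells, which share no array with the flagellin comparison. Of the 1589 genes called with flagellin, 1455 (91.6%) had the same sign there, beside 59.8% of all genes. Both conditions called 1056 in the same direction, 66.5% of the flagellin list and 18.4% of the unstimulated one, and 11 in opposite directions. These calls also share 1 estimate of the spread per gene, so they are not independent. Whether the strain difference itself differed between conditions was tested as an interaction, which called 456 genes (2.51%), 204 higher (1.12%) and 252 lower (1.39%), and 218 and 158 after quantile normalization or 200 and 515 after median centring. Of the 456, 64 were also called with flagellin. The largest were Cxcl10, an interferon-induced chemokine (4.51), Mx1 (4.17) and the antiviral synthetase-like gene Oasl1 (3.90). For Cxcl10 the B6 unstimulated arrays read 13.03, 14.10 and 14.06 and the B6 flagellin arrays 12.15, 8.84 and 9.69, while CB-R1 read 7.83, 8.02 and 9.42 unstimulated and 9.29, 8.82 and 10.17 with flagellin. For Cxcl10 each B6 unstimulated array stood above every other array of both strains. The interaction called 0 genes without B6 unstimulated array 2 or 3, B6 flagellin array 3, CB-R1 unstimulated array 1 or 2, or any 1 CB-R1 flagellin array, 1082 without B6 flagellin array 2, and 3117 without B6 unstimulated array 1.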

How the data were processed

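The study measured RNA of bone marrow-derived macrophages on 24 Affymetrix Mouse Genome 430 2.0 arrays, 3 per strain and condition. The authors deposited log2 expression values per probe set; their normalization was not given in the sources used here. Of 45037 probe sets, 4 held no value and 45033 were used. A platform table gave 1 symbol for 34944, several for 931 and none for 9158. For each of 18193 genes, the probe set of highest mean over all arrays was kept. All 24 arrays were fitted with limma 3.58.1 in R 4.3.3 (lmFit, eBayes; 8 group means, 16 residual degrees of freedom), with Benjamini-Hochberg adjustment over all genes and a threshold of 0.05. The fit was tested on simulated data. The members and the 38 gene lists (539 of 613 genes measured) were chosen with earlier results of these data known. Named genes were the 10 largest differences in each direction with non-overlapping arrays, up to 4 called members per list by size, the 5 largest per direction of both differences of differences, and 20 fixed genes; further list members, and genes of chromosome 3, were named after their values were seen. Alternatives varied normalization, the filter on low values, probe sets, the variance model, pairing, the arrays fitted and the fold. Promoters came from RefSeq on GRCm38.p6. The number of arrays limits the precision.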

Additional observations from a re-analysis of the deposited data

Results flagged for a closer look

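The strain difference with flagellin minus that in C3Bir against BC-R3 passed limma's test for 3 genes. It was 1.68 for Ppbp, 1.07 for Adgrg3 and -1.34 for Pgap1 on the log2 scale. Ppbp was lower in both C3Bir backgrounds, by a smaller amount in CB-R1.

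The strain difference with flagellin minus that in unstimulated cells was positive for interferon-induced genes. It was 4.51 for Cxcl10, 4.17 for Mx1, 3.90 for Oasl1, 3.79 for the chemokine gene Ccl12 and 3.66 for the nucleotide kinase gene Cmpk2. It was negative for the oxysterol-guided receptor gene Gpr183 (-2.22), the long noncoding RNA Neat1 (-1.94), the circadian factor gene Dbp (-1.83), the chemokine receptor gene Cxcr4 (-1.69) and the sorting nexin gene Snx24 (-1.60). All 10 passed limma's test with all arrays. On B6 unstimulated arrays 1, 2 and 3 Gpr183 read 8.54, 6.46 and 6.61, Neat1 11.43, 9.85 and 9.7, and Dbp 7.2, 5.64 and 5.8. Cxcr4 read 12.05, 10.26 and 10.2 there, and Snx24 9.39, 7.83 and 8.03. The lowest values on the 12 flagellin arrays were 9.23, 11.36, 7.3, 12.14 and 9.78 in that order. Il6 was high on B6 unstimulated arrays 2 and 3, and the part of that in the differences was not tested.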

How the results depend on the processing

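CB-R1 against B6 with flagellin called 1589 genes, 991 to 1849 without any 1 array, 3176 of all probe sets and 223 with at least 2-fold. Median centring turned its split from 934 higher and 655 lower to 724 and 836, and the median over all genes from 0.03 to -0.01; quantile normalization turned the split of the difference between conditions from 204 and 252 to 218 and 158. The difference between conditions (456 genes) was least stable: median centring gave 715, filtering low values 840, the full set of probe sets 232, trend and robust options 241, a random replicate block 1158 and at least 2-fold 139. It gave 0 with the mean of probe sets (limma, 4535 at an unadjusted p under 0.05), in the compared arrays alone (4156), with a replicate block there (4398) and without unstimulated arrays 2 and 3 of B6 and C3Bir (1025), and 0 to 3117 without any 1 array. The unstimulated comparison (5741) gave 11281 for all probe sets and 817 with at least 2-fold. C3Bir against BC-R3 (1123) gave 2147, 169 and, without any 1 array, 725 to 1077. The test by Cdcs1 allele (3) gave 5 for all probe sets, 0 in the compared arrays alone (limma, 1422 at an unadjusted p under 0.05) and 0 to 8 without any 1 array. The causes were not tested.

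Array numbers were not taken as pairs: deviations of same-numbered CB-R1 and B6 arrays correlated at -0.112, 0.141 and 0.047, and 1 of 3 CB-R1 arrays correlated best with its own number. With the replicate block the main comparison called 1652 genes in the fit of 24 arrays and 1221 in the 6 arrays alone, and the test by allele 5 and 17.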
